A study of Homo sapiens with 6 samples.

Results

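The EGFR (ErbB) family receptors and their ligands were followed across 6 RNA-seq libraries of 2 pancreatic ductal adenocarcinoma (PDAC) lines. The members are 9 genes of the 41768 in the table, taken by name: the receptor genes EGFR, ERBB2 and ERBB3, the EGFR ligand genes AREG, EREG, EPGN, TGFA and HBEGF, and the neuregulin gene NRG1. Poly(A) RNA was measured in PANC-1, an established human PDAC line, and in a line that the labels call 90. Each line had 2 siALDOA libraries, numbered 1 and 2 after the labels, and 1 NC library. siALDOA is taken to mean an siRNA that targets ALDOA, the gene of the glycolytic enzyme aldolase A. The labels leave unsaid what 90 and NC stand for and whether numbers 1 and 2 are different siRNAs. They name no separate cultures either, and a p-value here reflects only how these libraries vary, which may be technical.

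ErbB receptors are membrane tyrosine kinases that signal as dimers. EGFR binds the ligands of the EGF type, ERBB2 binds no known ligand and serves as the preferred partner, and ERBB3 has an impaired kinase and binds neuregulins. The ligands are made as membrane-bound precursors that metalloproteases of the ADAM family release, and the receptors drive MAP kinase and PI3K signalling in epithelial cells such as those of the pancreatic duct.

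Depth was 17.8 to 21.8 M fragments per library. ALDOA stood at 55.3% and 51.0% of the NC level in the siALDOA libraries of PANC-1 and at 36.1% and 43.8% in those of 90. Libraries of a line differed along GC content. Among the GC-poorest eighth of tested genes (transcript GC content of 25% to 39.6%), siALDOA 1 and 2 of PANC-1 lay -1.02 and 0.56 from NC in the median log2 change, and siALDOA 1 and 2 of 90 lay 1.40 and 0.12 from it. Of the 7 epithelial or ductal markers, 1 was called higher and 4 lower in PANC-1, with a summed level of 3421 to 4387 FPKM in PANC-1 and 4867 to 6655 FPKM in 90. Lower were KRT7 (6.24 to 11.5 FPKM in PANC-1 and 905 to 1350 FPKM in 90), CDH1 (1.18 to 2.05 FPKM in PANC-1 and 38.0 to 44.5 FPKM in 90), EPCAM (7.51 to 17.5 FPKM in PANC-1 and 88.6 to 154 FPKM in 90) and KRT19 (652 to 845 FPKM in PANC-1 and 1720 to 2427 FPKM in 90). SOX9 was higher, and KRT8 and KRT18 were not called, at 1194 to 1969 FPKM in PANC-1 and 956 to 1506 FPKM in 90. Of the 4 mesenchymal markers, VIM (1976 to 2322 FPKM in PANC-1 and 593 to 802 FPKM in 90) and CDH2 (5.29 to 7.82 FPKM in PANC-1 and 0.866 to 1.39 FPKM in 90) were called higher, FN1 (0.369 to 0.510 FPKM in PANC-1 and 10.8 to 11.1 FPKM in 90) was called lower, and ZEB1 was not called. Of the markers of fibroblasts, endothelial cells, leukocytes, acinar and endocrine cells, those above the filter were COL1A1 (9.96 to 13.7 FPKM in PANC-1 and 1.20 to 1.68 FPKM in 90), CDH5 (0 FPKM in PANC-1 and up to 3.28 FPKM in 90) and CD68 (124 to 162 FPKM in PANC-1 and 31.3 to 51.2 FPKM in 90). The others were not tested. Some of them, such as PTPRC, KDR, DCN and INS, were at or near 0 in all libraries, and some differed between the lines. The endothelial markers PECAM1 (up to 0.0201 FPKM in PANC-1 and 0.473 to 0.508 FPKM in 90) and VWF (up to 0.0155 FPKM in PANC-1 and 0.0639 to 0.143 FPKM in 90) lay higher in 90, as CDH5 did. The fibroblast marker COL3A1 lay higher in PANC-1 (0.282 to 0.359 FPKM, against 0 FPKM in 90). So did PDGFRB (0.161 to 0.208 FPKM, against at most 0.0886 FPKM in 90) and CD14 (0.389 to 0.722 FPKM, against at most 0.383 FPKM). KDR too lay slightly higher in PANC-1. The fibroblast marker COL1A2 lay higher in 90 (0.00971 to 0.0208 FPKM, against 0 FPKM in PANC-1). The acinar marker PRSS1 also lay higher in 90 (0.482 to 0.579 FPKM, against at most 0.0593 FPKM in PANC-1). The part of these markers in the differences of the members was not tested.

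The first question was how the lines differ in their ErbB system. Each gene was tested with limma on log2(FPKM + 1), with siALDOA as a term, if its mean over the 6 libraries was at least 1 FPKM. FPKM counts fragments for each kilobase of gene and each M (mega) of sequenced fragments. Of the 9 members, 8 were tested and EPGN was not. The threshold for a call was 0.05 on the p adjusted after Benjamini and Hochberg. ERBB2, ERBB3, AREG, TGFA, HBEGF and NRG1 were lower in PANC-1, which makes 6 of 8 called lower and 0 called higher. Of all 12592 tested genes, 38.8% were called, 18.4% lower and 20.4% higher in PANC-1. The libraries of the lines did not overlap for these 6 members, nor for 54.1% of all tested genes. In all 6 the PANC-1 libraries were the lower ones, as in 25.1% of tested genes, against 29.0% with PANC-1 above 90. EGFR and EREG overlapped between the lines. ERBB3 and TGFA were under 1 FPKM in every PANC-1 library and entered the test through 90 alone, so their calls follow in part from the filter and the count is no support for a shift of the family. The median log2 difference, PANC-1 minus 90, was -1.76 over the tested members and 0.13 over all tested genes. ERBB3 and TGFA are among these members, so the median too follows in part from the filter and is no support for such a shift. In bulk RNA, fewer cells that express a gene and less RNA per cell cannot be told apart.

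EGFR (chromosome 7, 55019021 to 55211628, plus strand; GRCh38, GENCODE v29) encodes the receptor after which the family is named. It stood at 13.8, 23.5 and 12.5 FPKM in siALDOA 1, siALDOA 2 and NC of PANC-1, against 27.0, 9.68 and 16.4 FPKM in siALDOA 1, siALDOA 2 and NC of 90. The highest library of each line was an siALDOA library, siALDOA 2 in PANC-1 and siALDOA 1 in 90, and the lines overlapped. These values rest on 1032 to 2952 fragments. EGFR averaged 16.6 ± 6.01 FPKM in PANC-1 and 17.7 ± 8.75 FPKM in 90 (SD, n = 3 libraries each). Its log2 difference was -0.03 (SE 0.436, 95% interval -1.15 to 1.09, limma adjusted p = 0.966), so a change of about 1 log2 unit in either direction lies near the ends of the interval. The sign turned to 0.32 without siALDOA 1 of 90.

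ERBB2 (chromosome 17, 39687914 to 39730426, plus strand), the ligandless partner of the other receptors, stood at 10.5, 8.79 and 8.25 FPKM in siALDOA 1, siALDOA 2 and NC of PANC-1, against 28.6, 39.4 and 34.0 FPKM in those of 90. Every PANC-1 library was lower than every library of 90. The mean was 9.17 ± 1.15 FPKM in PANC-1 and 34.0 ± 5.39 FPKM in 90 (SD, n = 3 each), 3.71-fold higher in 90, with a log2 difference of -1.78 (SE 0.182, limma adjusted p = 1.73e-03). The ratio of ERBB2 to EGFR was 0.757, 0.374 and 0.662 in siALDOA 1, siALDOA 2 and NC of PANC-1 and 1.06, 4.07 and 2.07 in those of 90. EGFR was thus the more abundant transcript of the pair in each PANC-1 library and ERBB2 in each library of 90, in siALDOA 1 of 90 with overlapping 95% Poisson intervals (27.5 to 29.7 FPKM for ERBB2 and 26.1 to 28.0 FPKM for EGFR).

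ERBB3 (chromosome 12, 56076799 to 56103505, plus strand), the kinase-impaired neuregulin receptor, stood at 0.398, 0.204 and 0.295 FPKM in siALDOA 1, siALDOA 2 and NC of PANC-1, against 6.25, 6.04 and 6.13 FPKM in those of 90. The 3 libraries of 90 were close to each other and every PANC-1 library was far below them. The PANC-1 values rest on 50, 22 and 35 fragments, with 95% Poisson intervals that together run from 0.128 to 0.524 FPKM, and those of 90 on 701, 662 and 627. The mean was 20.5-fold higher in 90. On the log2(FPKM + 1) scale, which understates changes of low genes, the difference was -2.46 (SE 0.165, limma adjusted p = 5.09e-04), and limma-voom on the recovered fragments gave -4.38. Intervals and limits from fragments cover counting error only.

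**Figure D1:**
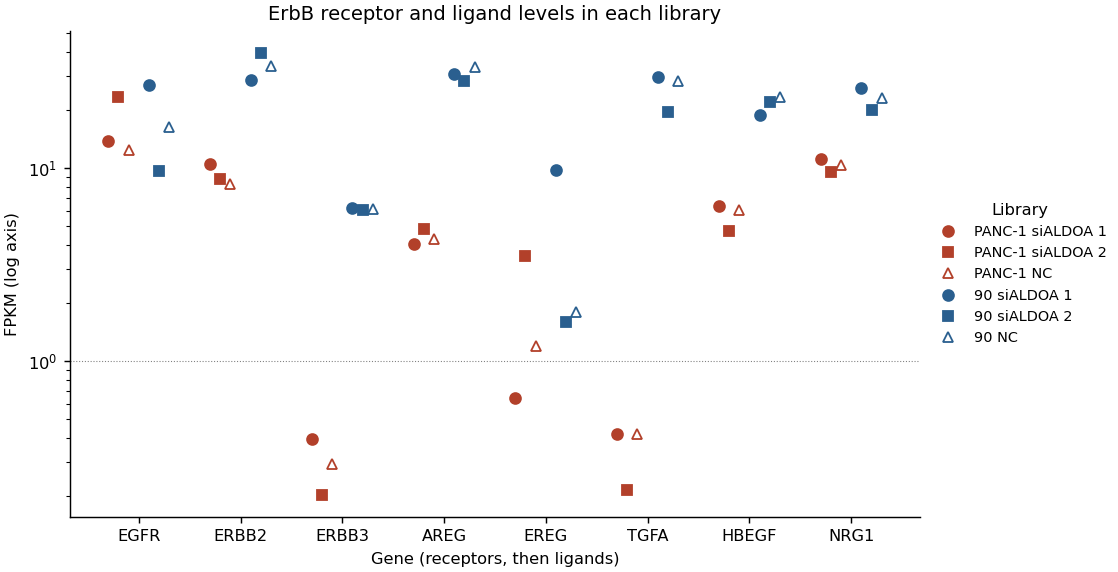
Level of each tested member in each library, in FPKM on a log axis, with PANC-1 in red on the left and 90 in blue on the right of each gene; filled symbols are siALDOA libraries, open triangles NC, and the dotted line marks 1 FPKM. The symbols of the lines separate for ERBB2, ERBB3, AREG, TGFA, HBEGF and NRG1 and mix for EGFR and EREG.

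The EGFR ligand genes AREG and EREG, and the untested EPGN, lie in 1 cluster on chromosome 4. AREG spans 74445134 to 74455009, EREG 74365143 to 74388751 and EPGN 74308473 to 74315307, all on the plus strand, with 56.4 kb between EREG and AREG and 49.8 kb between EPGN and EREG. The start regions of the 4 EGFR ligands that were tested are shown here as a description. Of these ligands 3 were called lower in PANC-1, while EREG, the neighbour of AREG, was not called. The part of the start regions in these differences was not tested. The sequences are RefSeq windows of GRCh38.p14, from 250 bases before to 50 bases after the RefSeq gene start, 5′ to 3′ on the strand of the gene: AREG at chr4:74444886-74445185, EREG at chr4:74364895-74365194, TGFA at chr2:70553777-70554076 on the minus strand (the first of 2 windows listed) and HBEGF at chr5:140346554-140346853 on the minus strand. These starts can differ from those of the GENCODE spans given in the text, and the TGFA window shown lies wholly inside the GENCODE span of TGFA. Capitals mark matches on either strand to the cAMP response element TGACGTCA, the AP-1 motif TGANTCA, the core promoter motif TATAAA or the GC box GGGCGG, and adjacent GC boxes can overlap.
AREG: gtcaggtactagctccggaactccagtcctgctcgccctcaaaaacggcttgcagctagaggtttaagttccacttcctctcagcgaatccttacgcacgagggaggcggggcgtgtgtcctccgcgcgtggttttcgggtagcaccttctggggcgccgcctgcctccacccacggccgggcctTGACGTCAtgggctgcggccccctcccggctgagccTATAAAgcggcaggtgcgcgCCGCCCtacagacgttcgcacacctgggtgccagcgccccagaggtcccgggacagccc
EREG: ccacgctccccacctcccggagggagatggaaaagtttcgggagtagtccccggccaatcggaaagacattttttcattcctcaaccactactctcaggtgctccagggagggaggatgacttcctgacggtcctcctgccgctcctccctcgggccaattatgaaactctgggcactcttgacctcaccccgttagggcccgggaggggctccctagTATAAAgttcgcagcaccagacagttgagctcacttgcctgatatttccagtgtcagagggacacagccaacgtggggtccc
TGFA: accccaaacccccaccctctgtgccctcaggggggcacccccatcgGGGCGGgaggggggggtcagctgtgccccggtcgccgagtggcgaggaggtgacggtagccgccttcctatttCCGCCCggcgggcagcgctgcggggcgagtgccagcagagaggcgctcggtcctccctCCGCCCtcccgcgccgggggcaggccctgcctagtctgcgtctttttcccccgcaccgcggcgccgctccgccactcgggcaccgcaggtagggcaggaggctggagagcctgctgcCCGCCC
HBEGF: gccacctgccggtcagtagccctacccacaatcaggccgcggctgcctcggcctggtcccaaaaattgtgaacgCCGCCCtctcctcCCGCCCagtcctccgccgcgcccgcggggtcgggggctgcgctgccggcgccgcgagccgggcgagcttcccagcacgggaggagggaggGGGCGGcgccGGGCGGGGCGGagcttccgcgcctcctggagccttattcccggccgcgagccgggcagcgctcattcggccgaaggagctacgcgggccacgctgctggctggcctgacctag

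The AREG window held TGACGTCA, whose first base lies at -65 from the start, TATAAA at -29 and 1 GC box. The EREG window held TATAAA at -32 and none of the other 3 motifs. TGACGTCA occurred in 1.85% of 35116 RefSeq promoter windows and TATAAA in 11.5%. The TGFA window shown had 4 GC boxes and the HBEGF window 5, with no match to the other motifs, while the other TGFA window (chr2:70553397-70553696) held no match to any of the 4 motifs, and GGGCGG occurred in 45.0% of all windows. GC content was 66.3% in the AREG window, 57.7% in that of EREG, 75.3% in the TGFA window shown, 63.0% in the other TGFA window and 75.0% in that of HBEGF. A match is a run of letters and not a measured site, and a missing match says only that these letters are not in the window.

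AREG encodes amphiregulin, a low-affinity EGFR ligand. It stood at 4.07, 4.87 and 4.31 FPKM in siALDOA 1, siALDOA 2 and NC of PANC-1, against 30.9, 28.4 and 33.6 FPKM in those of 90. All PANC-1 libraries were lower, and the libraries of a line were close together. The mean was 7.01-fold higher in 90, and the log2 difference was -2.56 (SE 0.150, limma adjusted p = 3.61e-04). EREG, the gene of epiregulin, which activates EGFR and ERBB4, stood at 0.643, 3.49 and 1.20 FPKM in siALDOA 1, siALDOA 2 and NC of PANC-1, against 9.78, 1.60 and 1.80 FPKM in those of 90. Its spread within a line was larger than the difference between the lines, and siALDOA 2 of PANC-1 lay above siALDOA 2 and NC of 90. The log2 difference was -0.76 (SE 0.679, limma adjusted p = 0.452). EREG has the lowest transcript GC content of the tested members, at 36.1%, and with the GC trend of each library removed its difference of -0.94 was called (adjusted p = 0.0479, against 0.0435 to 0.545 over the settings that keep all libraries or drop a pair of them). With the replicate number added to that fit as a block, EREG was not called (limma adjusted p = 0.0552). With 1 library left out its difference, without the GC correction, ran from -1.28 to -0.11 and was not called. EPGN, the gene of epigen, rested on 1, 2 and 2 fragments in siALDOA 1, siALDOA 2 and NC of PANC-1 and on 3, 1 and 0 in those of 90. All its values were at or under 3 fragments (0.0496 to 0.0610 FPKM), so no level of EPGN could be set at this depth.

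TGFA (chromosome 2, 70447280 to 70554193, minus strand) encodes TGF-alpha, a high-affinity EGFR ligand. It stood at 0.420, 0.215 and 0.423 FPKM in siALDOA 1, siALDOA 2 and NC of PANC-1, against 29.5, 19.5 and 28.4 FPKM in those of 90. The PANC-1 libraries held 41, 18 and 39 fragments and the libraries of 90 held 2575, 1661 and 2254, and the lines were far apart. The mean was 73.2-fold higher in 90, the widest ratio among the tested members. The log2 difference was -4.29 on the log2(FPKM + 1) scale (SE 0.221, limma adjusted p = 2.59e-04), -5.85 with a pseudocount of 0.1 and -6.20 in limma-voom. HBEGF (chromosome 5, 140332843 to 140346631, minus strand), the gene of heparin-binding EGF, which activates EGFR and ERBB4, stood at 6.39, 4.73 and 6.10 FPKM in siALDOA 1, siALDOA 2 and NC of PANC-1, against 18.8, 22.1 and 23.5 FPKM in those of 90. Every PANC-1 library was lower, with a mean 3.74-fold higher in 90 and a log2 difference of -1.74 (SE 0.172, limma adjusted p = 1.56e-03).

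NRG1 encodes neuregulin 1, a ligand of ERBB3 and ERBB4. It stood at 11.1, 9.55 and 10.4 FPKM in siALDOA 1, siALDOA 2 and NC of PANC-1, against 26.1, 20.1 and 23.0 FPKM in those of 90. All PANC-1 libraries were lower and the mean was 2.22-fold higher in 90, with a log2 difference of -1.08 (SE 0.162, limma adjusted p = 6.02e-03). Among the 6 called members this was the smallest difference, and the call was lost without NC of PANC-1 (adjusted p = 0.0554) and without NC of 90 (adjusted p = 0.0613), at an unchanged difference of -1.08. The calls of the other 5 held with each library left out in turn, and all 6 held without siALDOA 1 of 90 and siALDOA 2 of PANC-1 together.

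**Figure D2:**
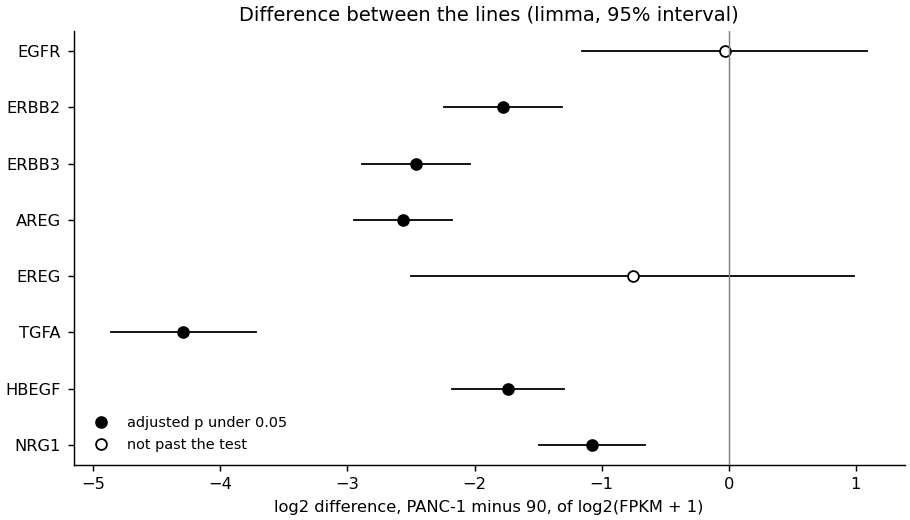
Log2 difference between the lines, PANC-1 minus 90, of log2(FPKM + 1) for each tested member (points) with its 95% interval from limma (lines); filled points passed an adjusted p of 0.05. The intervals of EGFR and EREG span 0, and TGFA lies farthest to the left at -4.29.

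The order of levels differed between the lines. In PANC-1 the mean levels ran from EGFR through NRG1, ERBB2, HBEGF, AREG, EREG, TGFA and ERBB3 to EPGN. In this order the libraries of NRG1 and ERBB2, of HBEGF and AREG, and of TGFA and ERBB3 overlapped, and the other neighbours did not. In 90 they ran from ERBB2 through AREG, TGFA, NRG1, HBEGF, EGFR, ERBB3 and EREG to EPGN. There the neighbours from ERBB2 down to EGFR overlapped pair by pair, as did ERBB3 and EREG, so only the steps from EGFR to ERBB3 and from EREG to EPGN were free of overlap.

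The summed level of the 5 EGFR ligands was 11.5, 13.4 and 12.1 FPKM in siALDOA 1, siALDOA 2 and NC of PANC-1 and 89.0, 71.6 and 87.2 FPKM in those of 90. AREG made up 35.3% to 36.5% of this sum in PANC-1 and 34.7% to 39.7% in 90. TGFA made up 1.61% to 3.64% in PANC-1 and 27.2% to 33.2% in 90. HBEGF made up 35.4% to 55.4% in PANC-1 and 21.1% to 30.8% in 90. AREG therefore took overlapping shares of the sum in the lines. The TGFA share was lower and the HBEGF share higher in PANC-1, both without overlap between the lines. EREG ranged from 5.57% to 26.2% in PANC-1 and from 2.06% to 11% in 90.

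Of the 6 other ErbB receptor and ligand genes, only NRG2 reached the filter. NRG2, a second neuregulin, stood at 7.28, 6.29 and 6.74 FPKM in siALDOA 1, siALDOA 2 and NC of PANC-1, against 0.559, 0.519 and 0.442 FPKM in those of 90. It was called higher in PANC-1 (log2 difference 2.37, SE 0.164, limma adjusted p = 5.62e-04), the direction opposite to NRG1, and entered the test through PANC-1. NRG1 and NRG2 together came to 15.8 to 18.4 FPKM in PANC-1 and 20.6 to 26.6 FPKM in 90, which do not overlap. ERBB4, the other neuregulin receptor, did not exceed 0.0366 FPKM in PANC-1 or 0.0252 FPKM in 90. EGF did not exceed 0.0163 FPKM in PANC-1 or 0.0733 FPKM in 90, and NRG3 was listed at 0 in all 6 libraries. BTC, the gene of betacellulin and a further member of the chromosome 4 cluster, stood at 0 to 0.0733 FPKM in PANC-1 and 0.340 to 1.67 FPKM in 90.

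Of 9 genes that act in ligand release or its inhibition, 8 were tested, 1 was called higher and 3 lower in PANC-1, and 4 were not called. For this list and those that follow, the shares of all tested genes are 20.4% called higher and 18.4% lower, and with so few genes the counts are a description. The median log2 difference was -0.27 against 0.13 over all tested genes. TIMP3, an inhibitor of ADAM17, averaged 0.0728 ± 0.0382 FPKM in PANC-1 and 5.98 ± 0.645 FPKM in 90 (SD, n = 3 each), a log2 difference of -2.70 (limma adjusted p = 4.10e-04). The metalloprotease gene ADAM15 averaged 20.1 ± 1.74 FPKM in PANC-1 and 132 ± 24.3 FPKM in 90 (-2.64), and RHBDF1, whose product helps ADAM17 mature, 12.1 ± 1.17 FPKM in PANC-1 and 25.3 ± 4.27 FPKM in 90 (-1.0). The rhomboid protease gene RHBDL2 was the 1 called higher, at 8.79 ± 1.49 FPKM in PANC-1 and 2.08 ± 0.466 FPKM in 90 (1.67). ADAM17, the main sheddase of AREG, TGFA and HBEGF products, stood at 5.57, 14.0 and 6.40 FPKM in siALDOA 1, siALDOA 2 and NC of PANC-1, against 13.2, 4.15 and 7.48 FPKM in those of 90. It was highest in the same libraries as EGFR and EREG, siALDOA 2 of PANC-1 and siALDOA 1 of 90, and the lines overlapped (log2 difference 0.08, adjusted p = 0.932). ADAM17 has a transcript GC content of 38.5%, within the lowest eighth.

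Among 22 adaptors and direct effectors, 21 were tested, 6 were called higher and 3 lower in PANC-1, and 12 were not called (median log2 difference 0.41). The SH2 adaptor gene GRB7 averaged 0.267 ± 0.0101 FPKM in PANC-1 and 6.97 ± 2.29 FPKM in 90 (log2 difference -2.62, limma adjusted p = 1.25e-03). The transcription factor genes STAT5B (2.22) and STAT3 (1.70) were higher in PANC-1, with STAT3 at 72.4 ± 10.1 FPKM in PANC-1 and 21.6 ± 1.61 FPKM in 90. The scaffold gene GAB2 was also higher (2.01), at 6.21 ± 0.838 FPKM in PANC-1 and 0.788 ± 0.128 FPKM in 90. GRB2 and SHC1, adaptors that bind the activated receptors, ranged from 70.3 to 175 FPKM over the PANC-1 libraries and from 41.2 to 83.0 FPKM over those of 90, and both were called higher in PANC-1 (0.79 and 0.92).

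Of 20 genes of receptor down-regulation and feedback, 18 were tested, 3 were called higher, 3 lower and 12 were not called (median log2 difference 0.00). ERRFI1, which encodes the EGFR kinase inhibitor MIG6, stood at 88.8, 130 and 95.2 FPKM in siALDOA 1, siALDOA 2 and NC of PANC-1, against 18.6, 8.93 and 14.6 FPKM in those of 90 (log2 difference 2.85, SE 0.315, limma adjusted p = 2.20e-03). CBL, the gene of the ubiquitin ligase that marks EGFR for degradation, averaged 11.3 ± 4.84 FPKM in PANC-1 and 1.78 ± 0.888 FPKM in 90 (2.13). Its relative CBLC went the other way, at 0.790 ± 0.0280 FPKM in PANC-1 and 19.6 ± 1.45 FPKM in 90 (-3.52). The kinase gene TNK2 was lower in PANC-1, at 8.96 ± 0.377 FPKM in PANC-1 and 21.9 ± 3.31 FPKM in 90 (-1.19).

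Of 16 genes that receptor activation induces early, 15 were tested, 4 were called higher, 3 lower and 8 were not called (median log2 difference 0.15). The ERK phosphatase genes DUSP4 and DUSP6 were lower in PANC-1. DUSP6 stood at 5.58, 5.70 and 5.53 FPKM in siALDOA 1, siALDOA 2 and NC of PANC-1, against 47.9, 36.3 and 49.9 FPKM in those of 90 (log2 difference -2.78, limma adjusted p = 3.92e-04), and DUSP4 averaged 0.150 ± 0.136 FPKM in PANC-1 and 29.8 ± 2.27 FPKM in 90 (-4.75). JUNB, of the AP-1 family, was lower (-1.64), and PHLDA1 was higher (1.36), at 82.8 ± 2.76 FPKM in PANC-1 and 31.7 ± 2.19 FPKM in 90. TIMP3, GRB7, CBLC and DUSP4, and the markers FN1 and CDH5, were under 1 FPKM in every PANC-1 library, and GAB2 in every library of 90. The tests of all these genes too follow in part from the filter.

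**Figure D3:**
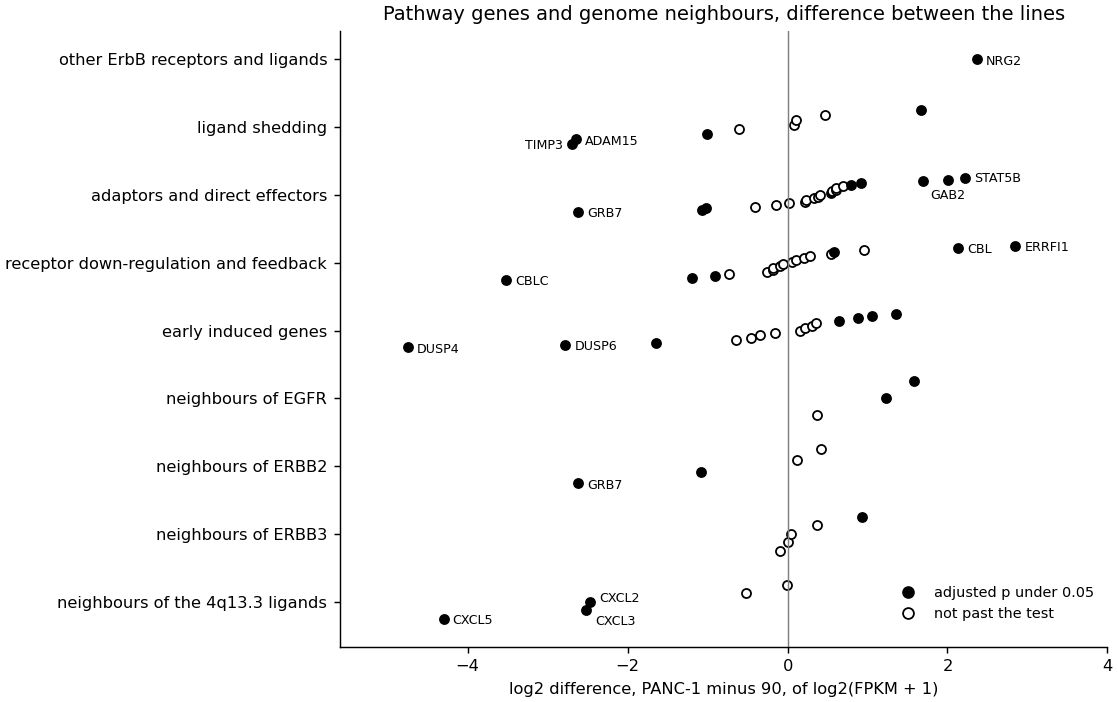
Log2 difference between the lines, PANC-1 minus 90, of log2(FPKM + 1) for each tested gene (points) of the pathway lists and of the genome neighbours of the members; filled points passed an adjusted p of 0.05, and called genes beyond 2 log2 units in either direction are named. Each pathway list with more than 1 tested gene has called genes on both sides of 0.

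The genome neighbours of the members were read beside them. Next to EGFR, 2 of 3 tested neighbours were called higher in PANC-1, LANCL2 (11.9 ± 0.408 FPKM in PANC-1 and 3.31 ± 0.257 FPKM in 90, log2 difference 1.58) and VOPP1 (1.23), while EGFR itself was not called. Next to ERBB2, 2 of 4 were called lower, GRB7 (-2.62), which is also an adaptor above, and STARD3, a lipid-transfer gene at 13.8 ± 2.70 FPKM in PANC-1 and 30.2 ± 4.77 FPKM in 90 (-1.08). MIEN1, which lies beside ERBB2, was not called (0.41, limma adjusted p = 0.148). Next to ERBB3, 1 of 5 was called, ESYT1, higher in PANC-1 (0.93). In the cluster on chromosome 4, 3 of 5 tested neighbours were called lower, the chemokine genes CXCL5 (-4.30), CXCL3 (-2.52) and CXCL2 (-2.47), each under 1 FPKM in every PANC-1 library. CXCL1 missed the threshold at 6.29 ± 1.04 FPKM in PANC-1 and 9.38 ± 0.715 FPKM in 90 (-0.52, adjusted p = 0.0560).

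The other question was whether the members changed with siALDOA. None was called over both lines, where limma called 0.0% of the 12592 genes (0 genes, 43 at an unadjusted p under 0.05; limma-voom also called 0). ALDOA itself, at 36.1% to 55.3% of NC in the siALDOA libraries, was not called either, over both lines or within a line. The absence of a call for a member thus does not show that the member was unchanged. No member reached an unadjusted p under 0.05 in limma, and the smallest unadjusted p = 0.419 was that of HBEGF. For no member did all 4 siALDOA libraries lie on one side of their NC library, a pattern that 9.21% of tested genes showed. The log2 change, siALDOA minus NC, was 0.25 for EGFR (SE 0.462), 0.09 for ERBB2 (SE 0.193) and 0.00 for ERBB3 (SE 0.175). Among the ligands it was 0.61 for EREG (SE 0.720), -0.07 for AREG (SE 0.159), -0.17 for TGFA (SE 0.235), -0.16 for HBEGF (SE 0.182) and -0.01 for NRG1 (SE 0.172). The 95% interval was -0.48 to 0.34 for AREG and -0.45 to 0.43 for NRG1, but -0.94 to 1.43 for EGFR and -1.24 to 2.46 for EREG. Changes of EGFR and EREG of more than 1 log2 unit upward thus lie within the error of these libraries.

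**Figure D4:**
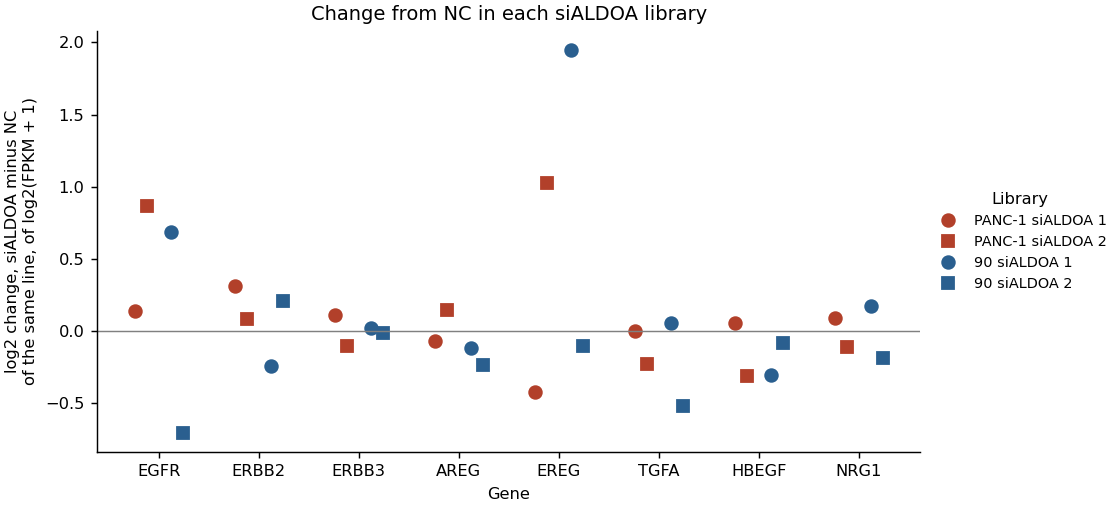
Log2 change of each tested member in each siALDOA library from the NC library of its line, of log2(FPKM + 1), with PANC-1 in red and 90 in blue. EREG and EGFR are spread widest, with siALDOA 2 of PANC-1 and siALDOA 1 of 90 on top for both genes.

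The siALDOA libraries of a line went apart from each other for EGFR and EREG. EGFR changed by 0.14 and 0.86 in siALDOA 1 and 2 of PANC-1 and by 0.69 and -0.70 in siALDOA 1 and 2 of 90. EREG changed by -0.42 and 1.03 in those of PANC-1 and by 1.94 and -0.11 in those of 90. For both genes siALDOA 2 of PANC-1 and siALDOA 1 of 90 were the highest library of their line, as for 34.3% of all tested genes, and for HBEGF they were the lowest, as for 34.1%. With the GC trend of each library removed, the changes of EREG were 0.58 and 0.55 in siALDOA 1 and 2 of PANC-1 and 0.65 and -0.39 in those of 90. The changes of EGFR, at 47.5% GC, were then -0.02 and 0.80 in PANC-1 and 0.80 and -0.57 in 90, so its spread was about as large as before. Counting error was small beside the spread of the uncorrected levels in 90. EREG in siALDOA 1 of 90 had a 95% Poisson interval of 9.14 to 10.4 FPKM, against 1.52 to 2.11 FPKM in NC of 90. For EGFR the intervals of the same libraries were 26.1 to 28.0 FPKM and 15.6 to 17.2 FPKM. Without siALDOA 2 of PANC-1 and siALDOA 1 of 90, a setting added after seeing the data, the change over both lines was -0.28 for EGFR and -0.27 for EREG, neither called.

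**Figure D5:**
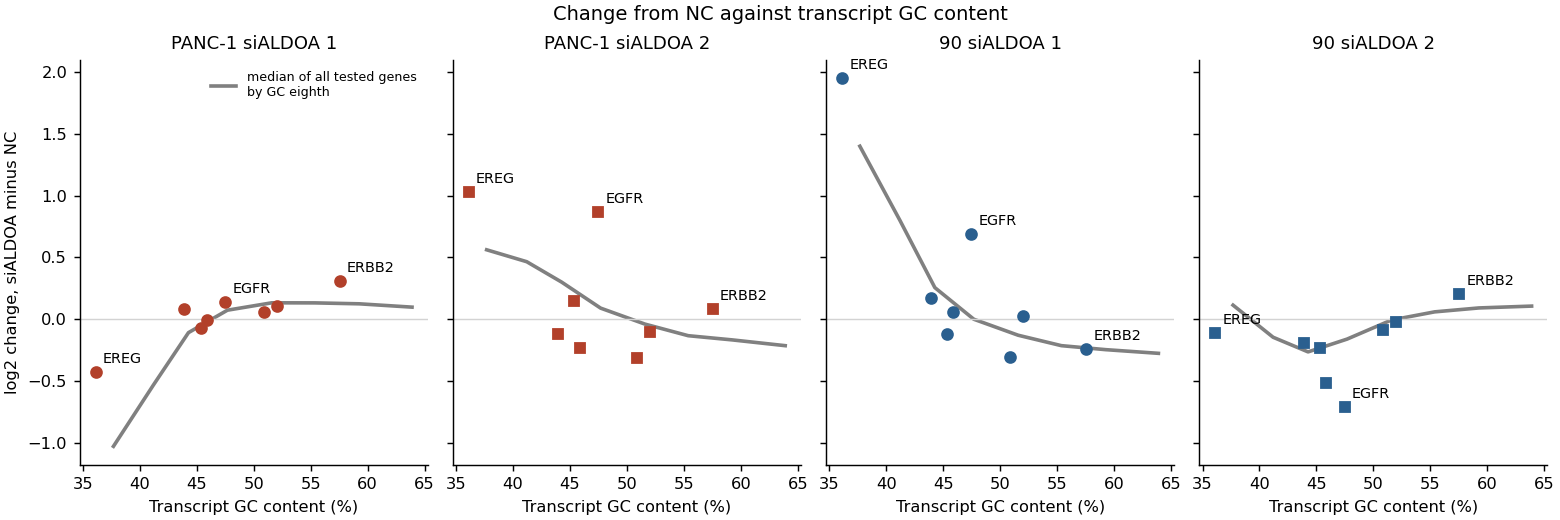
Log2 change from NC of the same line against transcript GC content (%) in each siALDOA library; points are the tested members and the grey line joins the medians of all tested genes in eighths of GC content. EREG, at 36.1% GC, lies above 0 with the low-GC end of the grey line in siALDOA 2 of PANC-1 and siALDOA 1 of 90, and EGFR, at 47.5%, lies above the line in both.

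Within lines the picture was the same. In PANC-1 limma called 0.0% of genes (0 genes, 21 at an unadjusted p under 0.05), and the member with the smallest p was EGFR at 0.50 (SE 0.718, unadjusted p = 0.524). In 90 it called 0.0% (0 genes, 33 at an unadjusted p under 0.05), and the member with the smallest p was EREG at 0.92 (SE 1.12, unadjusted p = 0.457). The difference of the siALDOA effects, PANC-1 minus 90, was called for 0.0% of genes (0 genes, 24 at an unadjusted p under 0.05) and was smallest in p for AREG at 0.22 (SE 0.399, unadjusted p = 0.618). These fits take the spread from the siALDOA pairs alone, and treat the single NC library of each line as if it varied like them. No tested gene of the pathway and neighbour lists was called for siALDOA over both lines or reached an unadjusted p under 0.05. The sum of the 5 EGFR ligands in siALDOA libraries was 11.5 and 13.4 FPKM against 12.1 FPKM in NC of PANC-1, and 89.0 and 71.6 FPKM against 87.2 FPKM in NC of 90, on both sides of NC in each line.

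For each tested member, the 2 genes with the most alike profile over the 6 libraries were found by the root mean square difference of log2(FPKM + 1) values centred on their own mean. For EGFR these were AKAP10 (0.030) and SSH2 (0.070), and AKAP10 stood at 3.28, 5.90 and 3.05 FPKM in siALDOA 1, siALDOA 2 and NC of PANC-1 and at 7.33, 2.09 and 4.08 FPKM in those of 90. For ERBB2 they were PKP3 (0.062) and ZNF385A (0.064), and for ERBB3 MR1 (0.034) and PITPNM3 (0.047). Among the ligands, HBEGF was closest to PLEKHG3 (0.033) and TMEM256-PLSCR3 (0.037), NRG1 to CTSC (0.064) and HIST1H2AI (0.089), and AREG to LOC102723909 and CTDSPL (0.083 each). EREG was closest to STARD4 (0.108) and SNORD76 (0.120), and TGFA to MILR1 (0.102) and TUSC3 (0.136). With 6 libraries that share 2 lines and a GC trend, many genes can lie close to a member, and this likeness is a description only.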

How the data were processed

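The members and gene lists were chosen with earlier results of these data known. The authors deposited FPKM values per gene. HISAT2, featureCounts and hg38 are named in the submitters' processing notes. Versions, strand setting and gene lengths are not stated. Of 41769 lines, 1 named no gene and was left out. Without strand, reads of overlapping or antisense genes cannot be told apart.

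Values were tested as log2(FPKM + 1) with limma 3.58.1 in R 4.3.3 (two-sided, intensity trend in the prior variance, Benjamini-Hochberg over all tested genes), with terms for line and siALDOA over all 6 libraries (3 residual degrees of freedom) or with 4 group means (2). The filter was a mean of 1 FPKM. The fits were tested on simulated data, with changes planted on noise that was independent between genes and libraries. The simulation held no GC trend, so it does not show how the fits perform with the library shifts seen here.

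Library totals were recovered from short RNAs of known RefSeq length, 96.0% to 96.9% of whose values came out as whole fragments. The smallest gene length that gave whole fragments in all libraries was then found for 100% of the 12592 tested genes (tolerance 2e-05 of a fragment, growing by 2e-09 of the count, lengths up to 30 kb). These fragments gave the Poisson intervals and the limma-voom alternative.

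GC content is that of the longest GENCODE v29 transcript, found for 90.6% of tested genes. GRCh38 of the annotation is the build that the notes call hg38. Promoter windows are from RefSeq and were found for 7 members. All 9 members are named. Of each pathway or neighbour list, up to 4 called genes with the largest difference are named, or the 2 with the smallest p where none was called; the named genes beyond these (ADAM17, GRB2, SHC1, MIEN1, CXCL1, BTC, ERBB4, EGF and NRG3) were added after their values were seen, as were the cell-type markers singled out. Alternatives were other pseudocounts, filters, scalings (median ratio, quantile, TPM), a GC correction, no variance trend, replicate blocks and leaving out each library.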

Additional observations from a re-analysis of the deposited data

Results flagged for a closer look

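No member met a rule for a closer look. Among the other named genes, 12 had both siALDOA libraries above NC in one line and both below NC in the other. The share of all tested genes with this pattern was not counted, so the number is a description only. The difference of the siALDOA effects, PANC-1 minus 90, was tested with limma for 11 of them and called for none (adjusted p = 1 each). RHBDL2, the rhomboid protease gene, stood at 10.4 and 8.40 FPKM in siALDOA libraries against 7.55 FPKM in NC of PANC-1, and at 1.70 and 1.94 FPKM against 2.60 FPKM in NC of 90 (difference 0.63, SE 0.470, unadjusted p = 0.249). GRB7 stood at 0.263 and 0.260 FPKM in siALDOA libraries against 0.279 FPKM in NC of PANC-1, and at 6.05 and 9.57 FPKM against 5.27 FPKM in NC of 90 (-0.48, SE 0.558). DUSP4 stood at 0.306 and 0.0912 FPKM in siALDOA libraries against 0.0527 FPKM in NC of PANC-1, and at 27.7 and 29.5 FPKM against 32.2 FPKM in NC of 90 (0.35, SE 0.459). DUSP6 stood at 5.58 and 5.70 FPKM in siALDOA libraries against 5.53 FPKM in NC of PANC-1, and at 47.9 and 36.3 FPKM against 49.9 FPKM in NC of 90 (0.27, SE 0.424). CXCL3 stood at 0.118 and 0.0921 FPKM in siALDOA libraries against 0.0418 FPKM in NC of PANC-1, and at 4.56 and 5.44 FPKM against 5.73 FPKM in NC of 90 (0.25, SE 0.443). SHC1 stood at 175 and 139 FPKM in siALDOA libraries against 138 FPKM in NC of PANC-1, and at 70.8 and 82.8 FPKM in siALDOA libraries against 83.0 FPKM in NC of 90 (difference 0.29, SE 0.375). CDH1 stood at 2.05 and 1.85 FPKM in siALDOA libraries against 1.18 FPKM in NC of PANC-1, and at 43.0 and 38.0 FPKM in siALDOA libraries against 44.5 FPKM in NC of 90 (difference 0.57, SE 0.406). The differences were 0.33 for SOX9 (SE 0.376), 0.13 for FN1 (SE 0.441), 0.0949 for PITPNM3 (SE 0.424) and 0.0879 for CTDSPL (SE 0.392). BTC, which did not pass the filter, stood at 0.0692 and 0 FPKM in siALDOA libraries against 0.0733 FPKM in NC of PANC-1, and at 1.67 and 0.556 FPKM in siALDOA libraries against 0.340 FPKM in NC of 90; its difference of -0.66 on the log2(FPKM + 1) scale was not tested.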

How the results depend on the processing

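The number of genes called between the lines was 4882. It ranged from 2422 (without NC of PANC-1) to 4110 with 1 library left out, was 4958 without siALDOA 1 of 90 and siALDOA 2 of PANC-1 together, was 2424 without NC of 90, and limma-voom on the recovered fragments called 4681. With the replicate number as a block it was 3258. Libraries of equal number did not move together. The difference siALDOA 1 minus 2 correlated at -0.86 between the lines over 12592 genes. The part of the GC shifts in this correlation was not tested, and it does not show whether equal numbers share an siRNA. A crossed replicate block, added after seeing the data, called 7594 genes between the lines. For siALDOA, 0 genes were called under each setting except without a filter, with 49 genes in PANC-1 and 38 in 90, and with the replicate block and GC correction together, with 4 genes in 90 and 8 for the difference of the effects; the cause was not tested. Median ratio scaling moved the median line difference of all tested genes to 0.02, from 0.13. Of 158 line differences of members recomputed under an alternative, 149 kept direction and call, 2 gained a call (EREG), 2 lost one (NRG1) and 5 turned the sign, all for EGFR. The EGFR difference was 0.05 without that pair and -0.48 to 0.32 with 1 library left out. For siALDOA, 143 of 158 kept direction and call and 15 turned the sign of a change that was not called. Among these were EGFR at -0.28 and EREG at -0.27 without that pair, and NRG1 at 0.055 by TPM. ERBB3 turned to -0.0088 with a pseudocount of 0.1, -0.012 with median ratio scaling, -0.028 with quantile normalization and -0.0059 in limma-voom. Leaving out 1 library turned others, such as ERBB2 at -0.018 without NC of PANC-1. With 1 library or that pair left out, the change ran from -0.28 to 0.58 for EGFR, from -0.018 to 0.26 for ERBB2, from -0.043 to 0.049 for ERBB3, from -0.18 to 0.040 for AREG, from -0.27 to 1.01 for EREG and from -0.088 to 0.066 for NRG1. Depth limits EPGN, which has at most 3 fragments in a library, and the PANC-1 levels of ERBB3 and TGFA.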
